A study of Mus musculus with 10 samples.

Results

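The genes described here are 7 that encode plasma carrier proteins made by hepatocytes and classed as negative acute phase proteins: Alb (albumin), Afm (afamin), Gc (vitamin D-binding protein), Ttr (transthyretin), Rbp4 (retinol-binding protein), Ahsg (fetuin-A) and Fetub (fetuin-B). They were chosen by gene symbol, and 7 of 7 were found among the 24972 genes of the deposited table. RNA was measured in 10 mouse liver libraries. The 4 T cell-low libraries came from livers of wild-type mice bearing a pancreatic tumour of the KPC-derived line 6419c1, while line 6555c3, also KPC-derived, formed the tumours of the wild-type mice behind the 6 T cell-high libraries. KPC names a genetically engineered mouse model of pancreatic cancer, and T cell-low and T cell-high are the submitters' classes for the tumours. Each class is 1 tumour line, so line and class cannot be told apart, and no tumour-free liver is among the samples used here. The sources used here give no strain, sex, age or time after implantation and do not say whether each library is its own mouse, so the p-values rest on a spread among libraries that could be partly technical.

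In an acute phase response, cytokines such as interleukin 6 and interleukin 1 make hepatocytes raise the output of one set of plasma proteins and lower that of another, the negative acute phase proteins. Albumin, afamin and vitamin D-binding protein are members of one family and carry fatty acids, vitamin E and vitamin D. Transthyretin carries thyroxine and, bound to retinol-binding protein, vitamin A. Fetuin-A keeps calcium phosphate in solution and fetuin-B inhibits an egg protease, and both belong to the cystatin superfamily. Blood levels of albumin and transthyretin are used in the clinic as signs of inflammation and poor nutrition.

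The albumin family genes lie on chromosome 5 and the fetuin genes on chromosome 16. In the mm10 assembly (GENCODE vM21) Gc spans chr5:89417522-89457898 on the minus strand, Alb spans chr5:90460897-90476602 on the plus strand and Afm spans chr5:90518932-90553543 on the plus strand. Only Afp, the fetal alpha-fetoprotein gene, stands between Alb and Afm among the genes named here, which are 42.3 kb apart. Ahsg (chr16:22891277-22899449) and Fetub (chr16:22918334-22939778) are 18.9 kb apart on the plus strand, followed by Hrg, Kng2 and Kng1, and Rbp4 lies at chr19:38116629-38125281 on the minus strand. Of the last 400 bases of the transcripts of each of the 7 genes, 0% of the 50-base words occur in a transcript of another gene. Only exact words on the transcript's own strand were compared, so overlap on the other strand is not covered. An antisense gene, Gm42109, covers the 3′ end of Afm, and the sources used here do not say whether reads were counted by strand.

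The stretches upstream of the start sites are shown for the 2 gene clusters, because in each of them a gene that differed between the groups lies beside one that did not pass the test. They come from RefSeq (GRCm38.p6), which had an entry for 6 of the 7 genes, and run 5′ to 3′ from 250 bases before the RefSeq start, ending before any base annotated as exon; that of Ahsg lies inside the GENCODE span of the gene. They cover chr5:90460620-90460869 for Alb, chr5:89457899-89458148 (minus strand) for Gc, chr5:90518699-90518931 for Afm, chr16:22891765-22892014 for Ahsg and chr16:22918132-22918333 for Fetub. Capitals mark matches on either strand to GTTAATNAT, TTNTGTAA (PAR bZIP and C/EBP type), TTCNNNGAA (STAT type), GGNCAAAG (HNF4 type) and TATAAA, letters that were chosen with the sequences in view.
Alb: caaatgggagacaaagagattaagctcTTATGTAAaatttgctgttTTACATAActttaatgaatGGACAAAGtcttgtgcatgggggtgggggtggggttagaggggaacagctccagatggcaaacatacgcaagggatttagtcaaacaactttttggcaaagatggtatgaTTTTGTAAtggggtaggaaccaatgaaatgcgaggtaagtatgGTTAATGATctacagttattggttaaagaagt
Gc: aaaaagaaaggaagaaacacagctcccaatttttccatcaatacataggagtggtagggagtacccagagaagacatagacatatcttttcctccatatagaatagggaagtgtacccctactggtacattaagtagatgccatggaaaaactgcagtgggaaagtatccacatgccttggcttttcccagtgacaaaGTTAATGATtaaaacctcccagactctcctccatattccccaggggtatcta
Afm: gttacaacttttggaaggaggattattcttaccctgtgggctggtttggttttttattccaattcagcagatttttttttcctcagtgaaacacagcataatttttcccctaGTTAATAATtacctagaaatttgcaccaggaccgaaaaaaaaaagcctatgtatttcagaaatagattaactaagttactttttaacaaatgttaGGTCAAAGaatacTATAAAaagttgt
Ahsg: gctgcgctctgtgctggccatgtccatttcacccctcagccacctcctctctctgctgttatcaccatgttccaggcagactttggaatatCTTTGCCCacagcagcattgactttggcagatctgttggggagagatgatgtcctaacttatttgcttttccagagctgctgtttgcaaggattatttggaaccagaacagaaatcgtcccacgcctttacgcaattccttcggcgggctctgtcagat
Fetub: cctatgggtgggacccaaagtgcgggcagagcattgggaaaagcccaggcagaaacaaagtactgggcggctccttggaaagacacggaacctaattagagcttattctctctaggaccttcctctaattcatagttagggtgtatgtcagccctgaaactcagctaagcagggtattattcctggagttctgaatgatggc
The letters GTTAATNAT stand upstream of Alb, Gc and Afm, the 3 albumin family members, and in 0.737% of the 32851 windows of 250 bases upstream of all starts in that table. The letters of the PAR bZIP type occur at 3 places upstream of Alb and in 3.51% of all windows. The HNF4 letters occur upstream of Alb, Afm and Ahsg and in 4.89% of all windows. The STAT letters occur in 0 of the 8 windows of these genes and in 7.02% of all windows. For Fetub the printed stretch holds none of the letters, and TATAAA (12.4% of all windows) begins 31 bases before its RefSeq start, past the end of that stretch. These matches are letters in a window and were not tested as sites.

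Values are given as scaled counts, which are gene counts that the authors scaled between libraries, from a kit that reads transcript 3′ ends. Scaled totals ran from 7000659 to 8257373 per library. Read depth is unknown, because the values are not whole numbers, so no counting interval is given. T cell-high 1, 3, 5 and 6 stand apart: 98 genes separate them from the other 6 libraries with a log2 gap of 1 or more. Examples picked once their values were known are the haemoglobin gene Hbb-bs and the class I gene H2-L. Hbb-bs had 3465 to 9359 scaled counts where the other libraries had 16.2 to 215, and H2-L was listed at 0 where they had 307 to 1477. Other globin genes were not higher in this set. Hba-a2 had 15330.5 to 32670 in it against 25604 to 93823 in the other libraries. For Hbb-bt the ranges were 657 to 1474 and 726 to 2592, and for Hba-a1 0 to 145 and 0 to 1792. Of the 3′ end words of Hba-a2, 81.2% occur in Hba-a1, so reads of these 2 genes may be mixed. Among T cell-low libraries, 2, 3 and 4 are separated in that way from the other 7 in 316 genes, T cell-low 1 being among those 7. All 4 T cell-low libraries are separated in that way from all T cell-high libraries in 28 genes. Both structures touch the carriers and are given beside them. The sources used here do not say what sets T cell-high 1, 3, 5 and 6 apart. Because they give no strain, a difference in strain between libraries could not be checked.

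Most of the carriers showed no difference between the groups that passed the test. Of the 7 carriers, Fetub rose in T cell-low livers, Afm fell, and Alb, Gc, Ttr, Rbp4 and Ahsg did not pass. The test was limma's moderated test on log2(scaled count + 1) over all 11110 genes with a mean of at least 10, with Benjamini-Hochberg adjustment over those genes and a threshold of 0.05. Over all genes tested 12.8% were called, 5.39% higher and 7.39% lower, so nothing particular to the carriers is read from 2 calls among 7. The list's median log2 fold change (T cell-low minus T cell-high) was -0.01 over the 7 carriers and 0.00 over all genes tested. With T cell-high 1, 3, 5 and 6, the libraries that stand apart, as a covariate the carriers' median was 0.56, and that of all genes stayed at 0.00. None of the 7 carriers separated the groups without overlap (0 of 7), against 7.39% of all genes tested (3.37% with T cell-low above and 4.02% with it below). In a bulk liver sample fewer hepatocytes and less RNA per hepatocyte cannot be told apart.

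**Figure D1:**
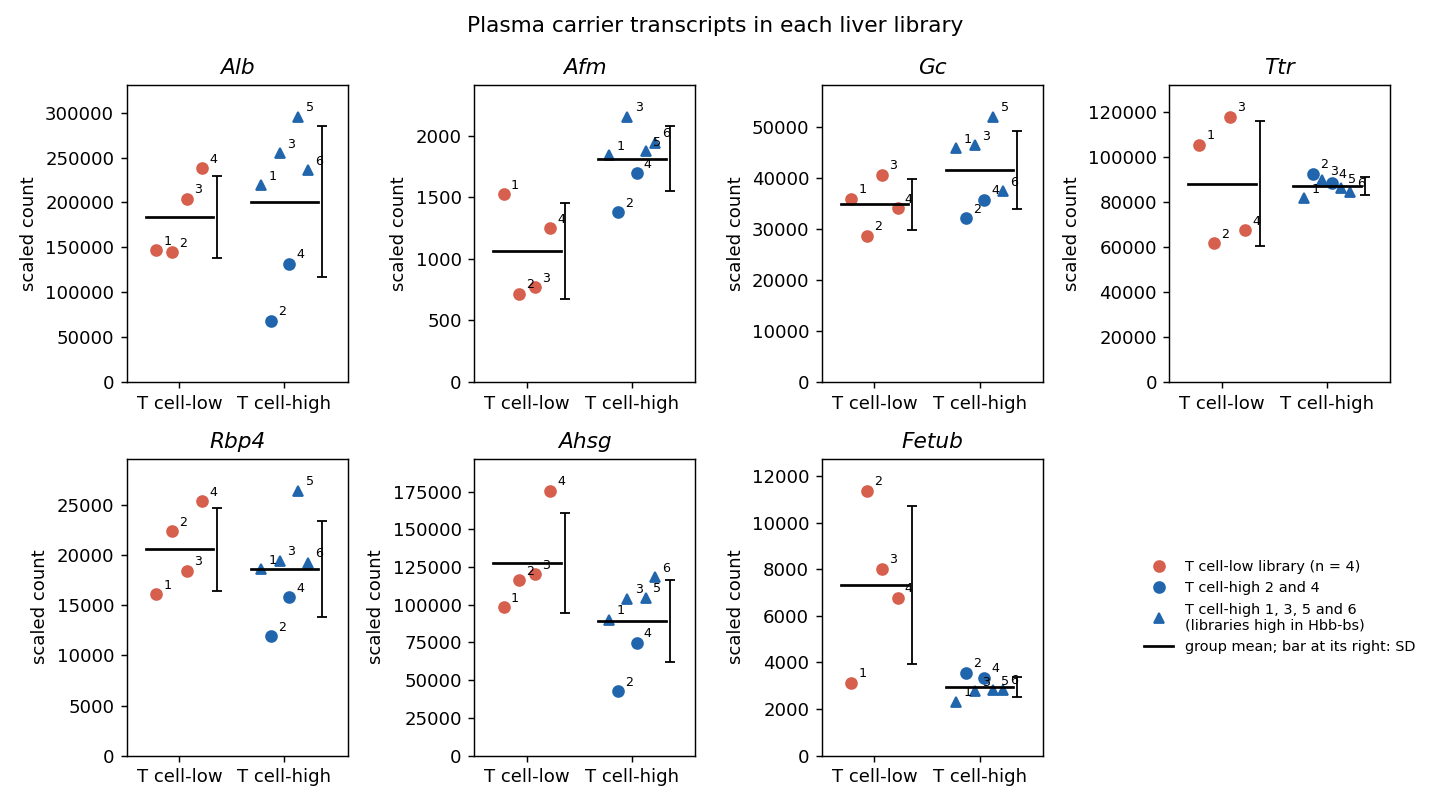
Scaled counts of the 7 carriers in each library, 4 T cell-low and 6 T cell-high, numbered by replicate, with the group mean and SD; triangles are T cell-high 1, 3, 5 and 6. T cell-low 2, 3 and 4 lie above all T cell-high libraries for Fetub and below all of them for Afm, T cell-low 1 lies within the T cell-high range for both, and T cell-high 2 is the lowest library for Alb, Rbp4 and Ahsg.

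Afamin transcripts were lower in T cell-low livers. Afm had 1525, 717, 768 and 1248 scaled counts in T cell-low 1 to 4 and 1841, 1377, 2153, 1696, 1873 and 1941 in T cell-high 1 to 6. T cell-low 2, 3 and 4 were below all T cell-high libraries, while T cell-low 1 was above T cell-high 2. The means were 1064 ± 389 (SD, n = 4) and 1813 ± 261 (SD, n = 6). Its log2 fold change was -0.83 (SE 0.23, limma adjusted p = 0.0397), a level 0.563 times that of T cell-high livers (95% interval 0.397 to 0.799). Leaving out T cell-low 1 kept the call (log2 fold change -1.02, adjusted p = 0.00435), as did leaving out T cell-high 2 (-0.90, adjusted p = 0.025). Omitting T cell-low 2 (adjusted p = 0.137), 3 (adjusted p = 0.1) or 4 (adjusted p = 0.0746) ended it, as did omitting T cell-high 1, 3, 4, 5 or 6 (adjusted p = 0.0792, 0.0855, 0.0553, 0.0802 and 0.0792 by limma), the log2 fold change staying between -0.93 and -0.66.

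Fetuin-B was the carrier that rose in T cell-low livers, by more than for any other carrier. Fetub had 3124, 11376, 8012 and 6779 scaled counts in T cell-low 1 to 4 and 2315, 3557, 2777, 3348, 2820 and 2835 in T cell-high 1 to 6. T cell-low 2, 3 and 4 were above all T cell-high libraries, and T cell-low 1 was inside their range, below T cell-high 2 and 4. The means were 7323 ± 3407 (SD, n = 4) and 2942 ± 445 (SD, n = 6). This was a log2 fold change of 1.19 (SE 0.30, limma adjusted p = 0.0276), a level 2.27 times that of T cell-high livers (95% interval 1.46 to 3.54). Without T cell-low 1 it was 1.55 (adjusted p = 3.4e-04), and the call also held without T cell-high 2 (adjusted p = 0.0218) and T cell-high 4 (adjusted p = 0.038). Omitting T cell-low 2 (0.93, adjusted p = 0.0981), 3 (adjusted p = 0.0691) or 4 (adjusted p = 0.0785) ended it, as did omitting T cell-high 1, 3, 5 or 6 (adjusted p = 0.0636, 0.0588, 0.0598 and 0.0581 by limma). Its direction, and that of Afm, was the same under every scaling tried, but the call of Afm was lost with upper quartile scaling (adjusted p = 0.0527), quantile normalization (adjusted p = 0.0695) and no filter on low values (adjusted p = 0.0501 by limma).

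Albumin transcripts did not differ between the groups beyond their spread, and their lowest and highest libraries were both T cell-high. Alb had 147088, 144745, 204387 and 238266 scaled counts in T cell-low 1 to 4 and 219126, 68423, 255147, 131954, 295529 and 235793 in T cell-high 1 to 6. T cell-high 2 and 4 were below all T cell-low libraries, T cell-high 3 and 5 were above all of them, and the highest T cell-high library had 4.32 times the value of the lowest. The log2 fold change was -0.01 (SE 0.39, limma adjusted p = 0.985), with a 95% interval of -0.85 to 0.82, which holds both a fall and a rise. In the fit with T cell-high 1, 3, 5 and 6 as a covariate it was 0.92 (SE 0.34, adjusted p = 0.244). Against T cell-high 2 and 4 alone, with the other T cell-high libraries left out, the same value had an SE of 0.43 (limma adjusted p = 0.562).

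The vitamin D carrier varied least in the albumin family, by 1.81 times between its lowest and highest library against 3.00 times for Afm and 4.32 times for Alb. Gc had 35873, 28637, 40609 and 34082 scaled counts in T cell-low 1 to 4 and 45821, 32125, 46392, 35746, 51970 and 37432 in T cell-high 1 to 6. Only T cell-low 2 was below all T cell-high libraries, and T cell-high 1, 3 and 5 were above all T cell-low libraries. The log2 fold change was -0.25 (SE 0.21, limma adjusted p = 0.404), with a 95% interval of -0.69 to 0.20. T cell-high 1, 3 and 5 are among the libraries high in Hbb-bs, while T cell-high 6, also high in it, was below T cell-low 3. With T cell-high 1, 3, 5 and 6 as a covariate the log2 fold change was 0.03 (SE 0.24, adjusted p = 0.963).

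The carriers of thyroxine and retinol, which travel together in plasma, had like group means. Ttr had 105490, 61758, 117948 and 67558 scaled counts in T cell-low 1 to 4 and 81630, 92618, 89669, 88469, 86080 and 84488 in T cell-high 1 to 6. T cell-low 1 and 3 were above all T cell-high libraries and T cell-low 2 and 4 below all of them, so that the mean of 88188 ± 27744 (SD, n = 4) lay beside 87159 ± 3916 (SD, n = 6). The log2 fold change was -0.04 (SE 0.23, limma adjusted p = 0.924), with a 95% interval of -0.53 to 0.46. Rbp4 had 16127, 22376, 18450 and 25371 scaled counts in T cell-low 1 to 4 and 18618, 11913, 19439, 15826, 26455 and 19265 in T cell-high 1 to 6. T cell-high 2 and 4 were below all T cell-low libraries and T cell-high 5 was above all of them. The log2 fold change was 0.17 (SE 0.23, adjusted p = 0.639), with a 95% interval of -0.34 to 0.67, and it was 0.56 (SE 0.26, adjusted p = 0.318) with T cell-high 1, 3, 5 and 6 as a covariate. T cell-low 2 and 4 were the libraries of that group with low Ttr and high Rbp4.

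Fetuin-A had the higher mean in T cell-low livers but did not pass the test. Ahsg had 98501, 116286, 120412 and 175734 scaled counts in T cell-low 1 to 4 and 90106, 42878, 104100, 74843, 104638 and 118269 in T cell-high 1 to 6. T cell-low 3 and 4 were above all T cell-high libraries, and T cell-high 1, 2 and 4 were below all T cell-low libraries. The log2 fold change was 0.56 (SE 0.30, limma adjusted p = 0.201), with a 95% interval of -0.09 to 1.20. In the fit with T cell-high 1, 3, 5 and 6 as a covariate it was 1.14 (SE 0.32, adjusted p = 0.183), and among the 6 libraries outside that set the same value had an SE of 0.40 (limma adjusted p = 0.548).

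With T cell-high 1, 3, 5 and 6 as a covariate, limma called 0 of the 7 carriers and 0 of all genes (3 carriers and 1788 genes at an unadjusted p below 0.05). In that fit Afm stood at -0.59 (SE 0.30, adjusted p = 0.34) and Fetub at 0.94 (SE 0.39, adjusted p = 0.272). Within the 6 libraries outside that set the fold changes were the same by construction, and limma called 0 carriers and 0 genes (1 carrier and 999 genes at an unadjusted p below 0.05). Because the set holds only T cell-high libraries, both fits leave T cell-high 2 and 4 as the comparators of the T cell-low group.

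**Figure D2:**
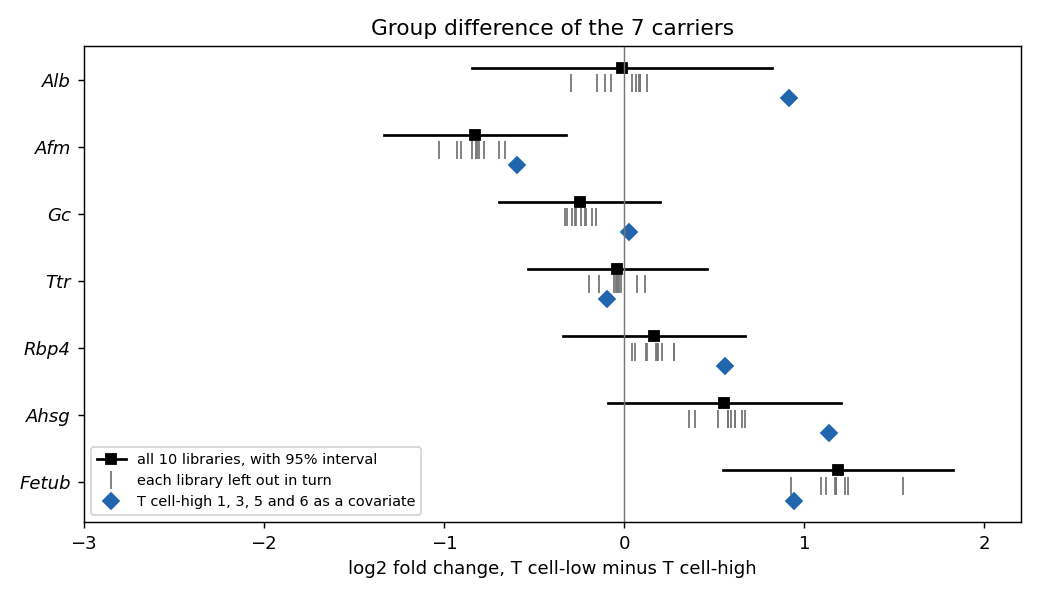
Log2 fold change (T cell-low minus T cell-high) of each carrier with its 95% interval, with each library left out in turn (ticks) and with T cell-high 1, 3, 5 and 6 as a covariate (diamonds). Only the intervals of Afm (-1.33 to -0.32) and Fetub (0.55 to 1.82) leave out 0, and under the covariate Alb, Afm, Gc, Rbp4 and Ahsg move up while Ttr and Fetub move down.

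Ratios of 2 carriers within a library do not depend on how that library was scaled, and 5 such ratios were compared. None passed an exact two-sided permutation test with Benjamini-Hochberg adjustment over the 5 (smallest p these groups allow 0.00952). A ratio that differed alone could pass only at that smallest p, so not passing does not show that the ratios were alike. The Alb to Afm ratio ran from 96.5 to 266 in T cell-low and from 49.7 to 158 in T cell-high livers (log2 difference 0.82, exact p = 0.0762, adjusted p = 0.19). The Afm to Gc ratio had a log2 difference of -0.58 (exact p = 0.0571, adjusted p = 0.19), and the Alb to Gc ratio of 0.24 (exact p = 0.543, adjusted p = 0.571). The Ahsg to Fetub ratio ran from 10.2 to 31.5 in T cell-low and from 12.1 to 41.7 in T cell-high livers (log2 difference -0.63, exact p = 0.2, adjusted p = 0.333). That of Rbp4 to Ttr had a log2 difference of 0.20 (exact p = 0.571, adjusted p = 0.571). The 7 carriers together took 4.84% to 6.65% of the scaled total of T cell-low libraries and between 3.55% and 7.58% in the T cell-high group, with T cell-high 2 the lowest and T cell-high 5 the highest.

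The kininogen genes beyond the fetuins on chromosome 16 were also higher in T cell-low livers. Beyond Fetub come Hrg (histidine-rich glycoprotein) and the kininogen genes Kng2 and Kng1, which are of the same superfamily and encode precursors of bradykinin. Kng1 had 32528 to 75312 scaled counts in T cell-low livers and 21398 to 31109 in the others, with no overlap (log2 fold change 1.19, SE 0.25, limma adjusted p = 0.0175). For Kng2 the ranges were 4106 to 7939 and 2669 to 3786 (1.03, SE 0.21, adjusted p = 0.017), but 22.1% of its 3′ end words occur in Kng1, and 11.2% of those of Kng1 in Kng2, so reads of both may be mixed. Hrg did not pass (0.58, adjusted p = 0.169). Neither did Cst3 (-0.31, limma adjusted p = 0.31), another listed relative, which was named after its values were seen. Of the 4 tested relatives and neighbours 2 rose and 0 fell. Over all genes tested 5.39% were called higher and 7.39% lower. Without overlap, 3.37% of them were higher in T cell-low livers. The calls of Kng1 and Kng2 held in 8 of 10 omissions of 1 library and were lost when T cell-low 2 or T cell-low 4 was left out (the highest adjusted p by limma was 0.0729 for Kng1 and 0.0692 for Kng2). T cell-low 1 was the lowest T cell-low library for Kng1, Kng2 and Hrg, as it was for Fetub. On chromosome 5, Afp, between Alb and Afm, was below the filter, with 5.16 scaled counts in T cell-low 1, a listed 0 in T cell-low 2, 3 and 4 and 0.964 to 7.96 in T cell-high libraries.

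**Figure D3:**
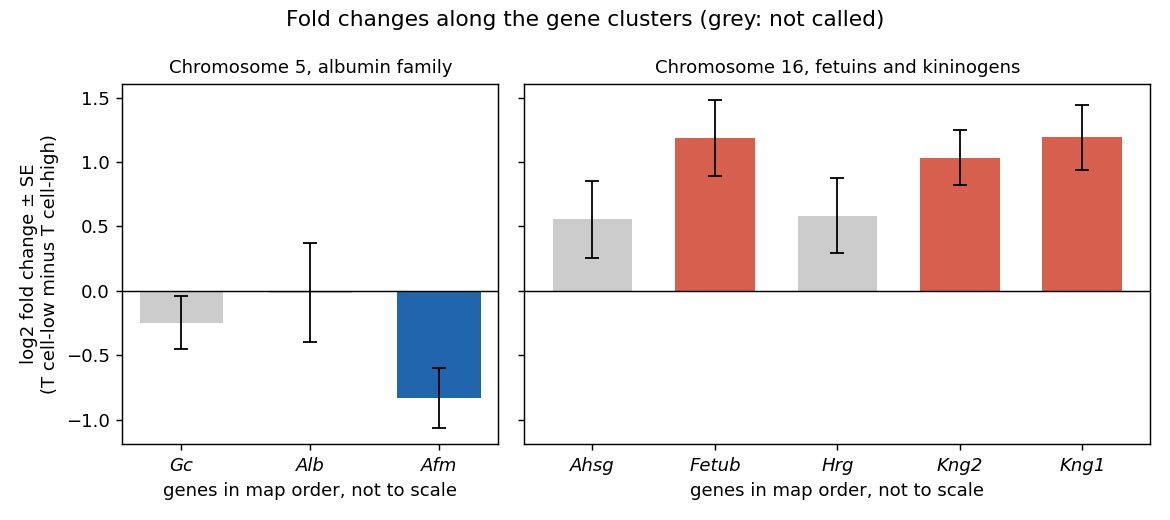
Log2 fold change ± SE of the albumin family genes of chromosome 5 and of the fetuin and kininogen genes of chromosome 16 in map order, coloured where called. Afm is the lower gene of the first cluster at -0.83 while Alb is at -0.01, and all 5 genes of the second are above 0, with Fetub, Kng2 and Kng1 called.

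Other negative acute phase genes also went both ways. Of 12 such genes, 3 fell in T cell-low livers, 1 rose and 8 did not pass, with a median of 0.02. The shares over all genes tested were 7.39% lower and 5.39% higher. Serpina6, which encodes the plasma carrier of glucocorticoids, had 128 ± 199 scaled counts (SD, n = 4) against 789 ± 144 (SD, n = 6), for a log2 fold change of -3.80 (SE 0.64, limma adjusted p = 0.00989), and its call held with each library left out. Pon1, a lipoprotein-bound esterase, fell (-1.61, adjusted p = 0.0406), as did Igfals, which holds IGF1 in plasma (-1.04, adjusted p = 0.032). The calls of Pon1 and Igfals each held in 3 of 10 omissions of 1 library. With T cell-high 1, 3, 5 and 6 as a covariate Pon1 was at -0.38 (limma adjusted p = 0.591) and Igfals at -1.33 (adjusted p = 0.171). Apoa1, the main apolipoprotein of HDL, rose (1.08, SE 0.24, adjusted p = 0.0208). Only 1 gene fell when T cell-low 2 or 4 or T cell-high 1, 3, 5 or 6 was omitted, and 0 rose when T cell-low 2, 3 or 4 or T cell-high 1 was. Omitting T cell-low 1 let 3 genes rise, and omitting T cell-high 2 let 2.

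Positive acute phase genes were mostly higher. Of 24 such genes 13 rose, 10 did not pass and 1, the C-reactive protein gene Crp (-0.91, chosen after its value was seen), fell, with a median of 0.85. In the whole set of genes tested 5.39% were called higher and 7.39% lower. The list holds serum amyloid A genes, which the study's title names, and so is no independent evidence of a direction. Itih3, which stabilises hyaluronan, was at 2.16 (SE 0.26, limma adjusted p = 0.00331) and Hpx, the haem carrier hemopexin, at 1.54 (SE 0.25, adjusted p = 0.00876). With single T cell-low libraries omitted, 2 rose in the absence of replicate 4, 4 in that of replicate 2 and 6 in that of replicate 3. Omitting T cell-high 1, 3 or 5 left 7, 5 and 6 that rose. Relative to the T cell-high mean, the list's median in single libraries was 0.77 to 0.96 for T cell-low, replicate 1 included, and -0.33 to 0.52 for T cell-high.

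Several genes that handle what these proteins carry were lower in T cell-low livers. Of 19 tested genes of vitamin A, D and E, thyroid hormone and albumin handling, 7 fell, 0 rose and 12 did not pass, with a median of -0.82. Among all genes tested 7.39% were called lower and 5.39% higher. For vitamin A, Aldh1a1, which makes retinoic acid from retinal, had 1199 ± 1344 scaled counts (SD, n = 4) against 6576 ± 1574 (SD, n = 6) and fell by 3.00 on the log2 scale (SE 0.49, limma adjusted p = 0.00876), with 10.5% of its 3′ end words shared with Aldh1a7. Dhrs3, which reduces retinal to retinol, fell (-1.78, adjusted p = 0.017), and so did Rdh11, another retinal reductase (-1.33, adjusted p = 0.049). For thyroid hormone, Dio1, the deiodinase that activates thyroxine, had 101 ± 169 against 633 ± 299 scaled counts (-4.34, SE 0.96, adjusted p = 0.0199). Fcgrt and B2m encode the 2 chains of the receptor that returns albumin to the blood, and both fell (-0.82, adjusted p = 0.0359, and -0.74, adjusted p = 0.0324). Rdh11, Fcgrt and B2m were chosen after their values were seen, and their calls held in 2, 3 and 3 of 10 omissions of 1 library. The vitamin A esterase gene Lrat (-0.08, adjusted p = 0.88) and the vitamin E carrier gene Ttpa (-0.41, adjusted p = 0.344) did not pass and were also named after their values were seen. Omitting T cell-low 1 raised the number that fell to 12, omitting T cell-low 2 or 4 left 1, and omitting T cell-high 3, 5 or 6 left 4.

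Of 21 regulators of plasma protein genes 4 rose, 0 fell and 17 did not pass, with a median of 0.21, beside 5.39% of all genes that were called higher and 7.39% called lower. Il1r1, the interleukin 1 receptor, had 2194 ± 1715 scaled counts (SD, n = 4) against 339 ± 103 (SD, n = 6), for a log2 fold change of 2.32 (SE 0.50, limma adjusted p = 0.0193). The liver transcription factor genes Onecut1 (1.41, adjusted p = 0.0169; 13.1% of its 3′ end words occur in Gm20649), Foxa3 (1.42, adjusted p = 0.0449) and Tef (1.58, adjusted p = 0.0297) rose, the last being of the PAR bZIP family. Hnf4a, which encodes a nuclear receptor of hepatocytes, had 975 against 1191 scaled counts (-0.30, limma adjusted p = 0.59) and was named after its values were seen. Omitting T cell-low 2 or 4 left 0 that rose, and omitting T cell-low 3 or T cell-high 1, 3, 5 or 6 left 2.

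**Figure D4:**
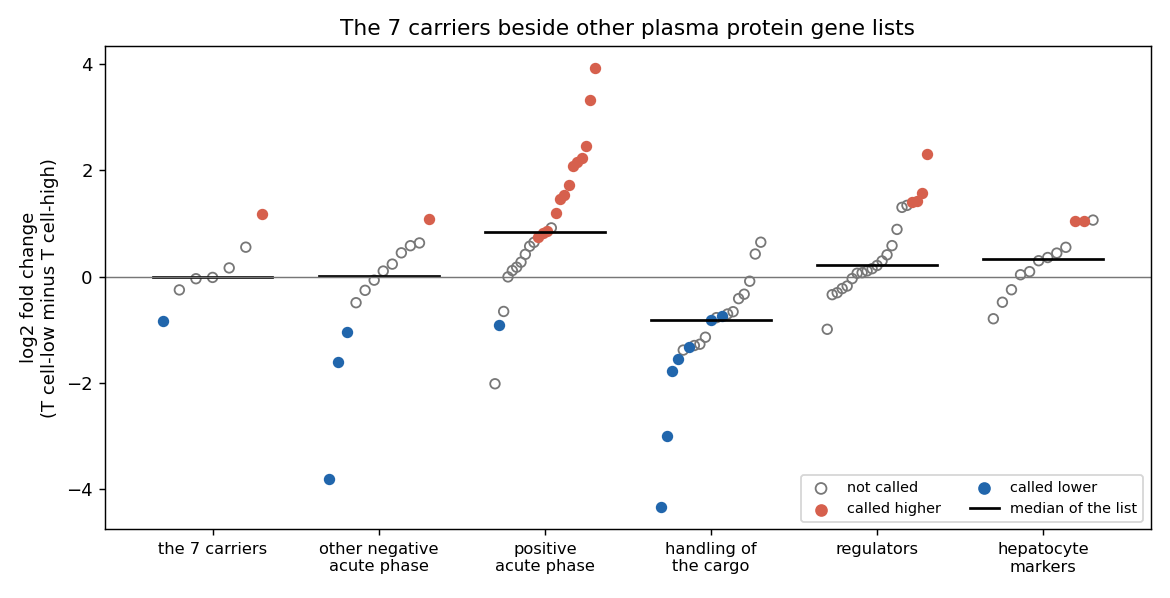
Log2 fold change (T cell-low minus T cell-high) of each tested gene in 6 lists, filled where called, with the list median as a line. The 7 carriers (median -0.01) and the other negative acute phase genes (median 0.02) lie on both sides of 0, the positive acute phase genes mostly above it (median 0.85) and the cargo handling genes mostly below it (median -0.82).

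Some cell type markers and some immediate early genes, which were listed for tissue handling, differed between the groups as well. All counts in this paragraph stand beside 5.39% of all genes tested that were called higher and 7.39% called lower. Of 12 hepatocyte markers that are not carriers, 2 rose and 0 fell (median 0.33), and none was at 0 in all libraries. They include Apob (1.05) and Arg1 (1.04), and 0 passed when T cell-low 2, 3 or 4 or T cell-high 1, 3, 5 or 6 was omitted, against 4 on omitting T cell-low 1 and 1 on omitting T cell-high 4. Of 6 tested neutrophil genes 5 rose, with sums over the 11 listed of 1286 to 3082 scaled counts in T cell-low livers and 104 to 1014 in the others. Omitting T cell-low 2 or 4 left 2 neutrophil genes that rose, and omitting T cell-low 3 or T cell-high 1, 3 or 5 left 3. Of 12 immediate early genes 4 rose, and their sums were 1419 to 8669 and 883 to 2393, with 7, 0, 2 and 1 that rose on omitting T cell-low 1, 2, 3 and 4. The calls were 2 of 6 erythroid genes higher, 2 higher and 1 lower of 9 sinusoidal endothelial genes, and 1 of 1 tested exocrine pancreas gene lower (Cela1, -1.22). The erythroid and endothelial lists kept 0 higher calls when T cell-low 2, 3 or 4 or T cell-high 1 or 5 was left out, and Cela1 lost its call without T cell-low 2. Among Kupffer cell (11), stellate (10), T, NK and B cell (4) and cholangiocyte or carcinoma (5) genes 0 passed by limma (1, 3, 0 and 2 at an unadjusted p below 0.05). The part of these cells, and of tissue handling, in the values of the carriers was not tested.

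Genes whose pattern over the 10 libraries was most like that of each carrier were taken by Pearson correlation of log2(scaled count + 1) over the genes tested, as a description in which all points share the scaling and the group difference. For Afm these were Tomm7, a subunit of the mitochondrial import channel (r = 0.985), Gnpda1 (r = 0.984) and the tubulin gene Tuba1b (r = 0.978). For Fetub they were Ddx21 and Pes1, which act in ribosome assembly (r = 0.983 for each), and Mtdh (r = 0.980). For Alb they were Ctgf (r = 0.955), the ribosomal protein gene Rpl32 (r = 0.953) and Cnot2 (r = 0.949). For Gc they were As3mt (r = 0.948), Atad1 (r = 0.931) and Fgd5 (r = 0.930), and for Ttr Arhgap29 (r = 0.949), Fign (r = 0.947) and Blvra (r = 0.944). For Rbp4 they were Socs7 (r = 0.976), Hoga1 (r = 0.959) and Yod1 (r = 0.949), and for Ahsg Slc41a3 (r = 0.948), Rbm4b (r = 0.945) and Enpp2 (r = 0.936). No carrier was among the 3 genes most like another carrier, but some carriers were strongly correlated over the 10 libraries. Afm and Fetub ran opposite to each other (r = -0.943), so their calls are not taken as independent results. The r was 0.837 for Rbp4 with Ahsg, 0.820 for Alb with Rbp4 and 0.781 for Alb with Ahsg. All other pairs of carriers were weaker, the weakest being Afm with Rbp4 (r = -0.074).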

How the data were processed

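Total RNA of livers was sequenced from transcript 3′ ends (QuantSeq FWD, per the labels' protocols). STAR, DESeq2 and the build mm10 are named, without versions, in the submitters' processing notes; no source used here gives the counter or annotation. The authors' deposited table has 1 signal value per gene and library, gene counts scaled by the authors; its values are not whole. Groups and replicate numbers came from sample titles, and columns were matched by the description label. Log2(scaled count + 1) of genes with a mean of at least 10 was compared with limma 3.58.1 in R 4.3.3 (variance trend, group only, 4 against 6 libraries, two-sided, 13.1 degrees of freedom). On values simulated for this comparison (11110 genes, 50 changed at each size), 22% of the genes given a log2 change of 1 were called, and 68% of those given 2. The simulated noise was normal on the log2 scale and independent between libraries, with no sets of libraries. Few genes were changed, whereas 12.8% were called in the data, so these shares do not give the power of the comparison. Ratios were tested by exact permutation in scipy 1.17.1. The carriers, lists and pairs were chosen with earlier results of these data known. Genes named are the 7 carriers, the 3 genes most like each, up to 4 called genes of lowest adjusted p per list or, with none called, the 2 of highest mean; others are marked as chosen after their values were seen, and some genes of the lists are counted but not reported here by name. Alternatives covered scaling, pseudocount, filter, robust option, array weights, replicate block, threshold, the library set and each library left out; list counts with a library left out, and the block for ratios, were added after seeing the data.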

Additional observations from a re-analysis of the deposited data

How the results depend on the processing

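The calls at the adjusted threshold changed with the library left out. With each library left out in turn, 0 to 1 carriers were called lower, 0 to 1 higher, and 108 to 3622 genes in all, against 1420. In every omission Afm and Fetub kept an unadjusted limma p below 0.05, at most 0.0168 for Afm and 0.00658 for Fetub. The log2 fold change then ranged from -0.29 to 0.13 for Alb and from -0.20 to 0.12 for Ttr, which changed sign, and the log2 difference of the Rbp4 to Ttr ratio ranged from -0.014 to 0.42. Over the same omissions the ratio difference was 0.61 to 1.11 for Alb to Afm, 0.02 to 0.35 for Alb to Gc, -0.76 to -0.37 for Afm to Gc and -0.88 to -0.34 for Ahsg to Fetub. No carrier was called lower with upper quartile scaling, quantile normalization or no filter on low values (0 each by limma, where Afm had an adjusted p of 0.0527, 0.0695 and 0.0501). With the library set as a covariate, or with no T cell-high library other than 2 and 4, 0 carriers and 0 genes were called by limma (1788 and 999 genes at an unadjusted p below 0.05), and the fold changes turned to 0.92 for Alb and 0.027 for Gc and the Ahsg to Fetub ratio to 0.20. Quantile normalization turned Alb to 0.054 and Rbp4 to -0.068 and moved Ttr to -0.51, Gc to -0.50 (unadjusted p = 0.0286, limma adjusted p = 0.106) and Ahsg to 0.20, and the difference of medians turned the Alb to Gc ratio to -0.024. The number of genes called was 3266 with array weights and 2871 at a threshold of 0.1. Rescaling to equal totals shifted the median log2 fold change of all genes to -0.11 and the split of calls from 599 higher and 821 lower to 421 higher and 1068 lower, with Afm at -0.95 and Fetub at 1.07, both called.

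Same-numbered libraries did not deviate together (correlations of 0.10, 0.21, -0.10 and -0.15 over genes, and 1 of 4 T cell-low libraries correlated best with its own number), so the numbers were not taken as pairs. A fit with the replicate number as a block called 231 genes (2675 at an unadjusted p below 0.05) and 0 carriers lower or higher, with Afm at -0.79 (adjusted p = 0.119), Fetub at 1.16 (adjusted p = 0.0612) and Alb at 0.26, which was also the median of the 7 carriers. Of 26 groups of values checked for a library far from the rest, by its gap as a share of the range, 0 had one. Within groups of 4 or 6 libraries such a check can flag only an extreme value, so no conclusion is drawn from it. Read depth is unknown, so no counting error could be set beside the spread between libraries. The cause of these shifts was not tested.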

Other observations

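The spread of the carriers within a group differed from gene to gene. The coefficient of variation of Ttr was 31.5% over the 4 T cell-low and 4.49% over the 6 T cell-high libraries, that of Fetub 46.5% and 15.1%, and that of Afm 36.5% and 14.4%. For Alb it was the other way round, at 24.9% for T cell-low and 42.1% for T cell-high. These spreads were not compared by a test. Alb ranked 2 among all genes in mean scaled count over the 10 libraries, Ahsg 4, Ttr 5, Gc 23, Rbp4 45, Fetub 193 and Afm 698, on a scale of 3′ end counts that is not divided by transcript length.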
